A study of Caenorhabditis elegans with 6 samples.

Results

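A set of 5 genes for subunits of RNA polymerase I, rpoa-1, rpoa-2, rpoa-12, rpac-19 and rpac-40, was followed in whole Caenorhabditis elegans. They were taken by gene name and are 5 of the 22416 genes with counts. RNA polymerase I is the nuclear enzyme that transcribes the ribosomal DNA repeats inside the nucleolus and so makes the precursor of the large ribosomal RNAs. Its 2 largest subunits form the catalytic centre, a pair of alpha-like subunits on which the enzyme is assembled is shared with RNA polymerase III, and a small zinc-ribbon subunit helps it to cleave RNA when it stalls, as known from yeast. NOL-56, the target of the RNAi, also acts in the nucleolus, in the box C/D particles that direct methylation of that precursor.

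All animals were CL2006, a strain that carries unc-54p::Abeta, in which a body wall muscle promoter drives the human amyloid-β peptide; controls and treated worms share the transgene. Each library was a pool of whole worms kept at 20 °C and collected on day 6 of adulthood, with progeny removed by daily transfer. From the last larval stage on, the diet of 3 pools was bacteria with an empty vector (EV control), and that of the other 3 pools was bacteria for nol-56 RNAi. The libraries were polyA-selected, so ribosomal RNA, the product of the enzyme, is not read here. The labels name no batch and do not say whether the pools were separate cultures, so the spread behind each p-value is that between libraries and may be technical.

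Total gene counts ran from 21138955 to 34841215 per library. The nol-56 transcript was lower in all 3 RNAi libraries, at 18.2 ± 2.59 CPM against 263 ± 8.66 CPM (CPM, the count scaled to a common TMM-adjusted library total; mean ± SD, n = 3 in each group). With edgeR's quasi-likelihood test and Benjamini-Hochberg adjustment over 14677 genes, 88% of all genes passed an adjusted p of 0.05, 40.8% as lower and 47.2% as higher. The counts of subunit genes, other list genes and markers called that follow are set against these shares. Over all genes the median log2 fold change was 0.16.

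All 5 subunit transcripts fell on nol-56 RNAi, and in each of them every RNAi library lay below every control library. Across all genes tested, 40.9% showed that separation in the lower direction. The falls ranged from 1.42-fold for rpac-19 to 2.38-fold for rpoa-2, with a median log2 fold change of −0.84. With TMM scaling, 4 of the 5 fell at least 1.5-fold, against 25.8% of all genes. Only rpoa-2 fell at least 2-fold, against 12.4% of all genes. Both counts changed with other scaling. With RLE factors the smallest fall was that of rpac-19 (log2 fold change −0.64), so all 5 fell at least 1.5-fold. With upper-quartile factors rpac-19 (−0.26) and rpoa-1 (−0.53) fell less than 1.5-fold. There rpoa-2, still the deepest, stood at −0.9999, just short of 2-fold. In the setting with its deepest fall, rpoa-12 also passed 2-fold (−1.039). The 5 transcripts together summed to 412 ± 21.3 CPM in controls and to 215 ± 7.23 CPM on RNAi. These are bulk samples of whole worms, in which fewer cells of a type and less RNA per cell cannot be told apart.

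**Figure D1:**
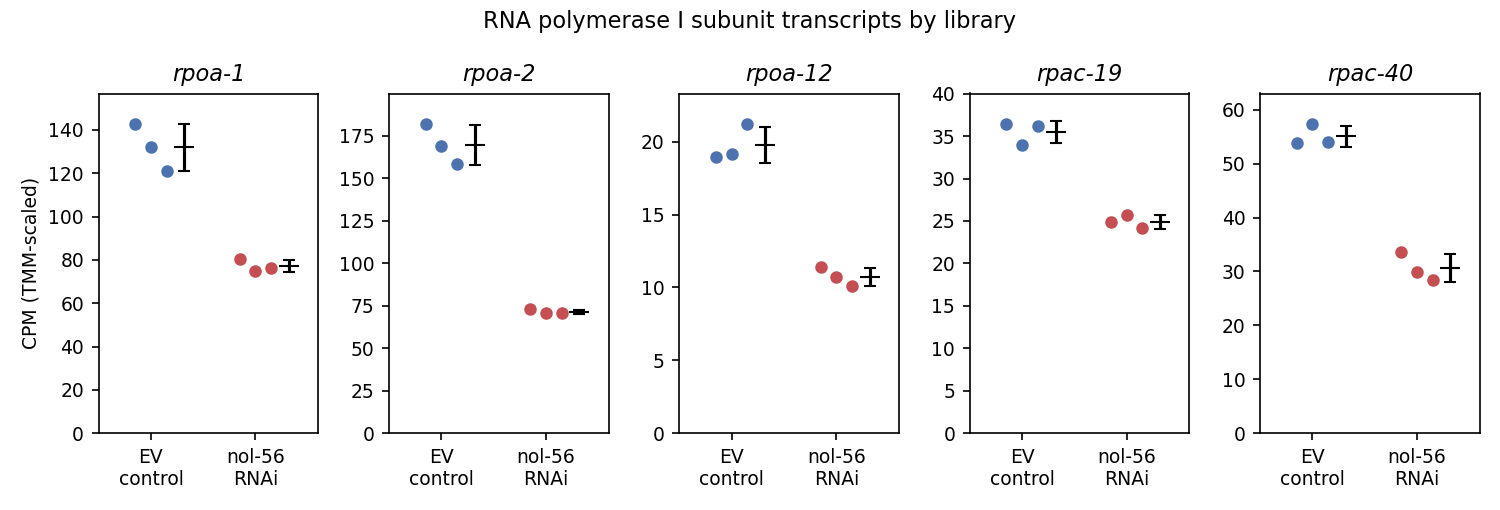
CPM of each of the 5 subunit transcripts, 1 point per library (blue, EV control; red, nol-56 RNAi), with the group mean ± SD (n = 3) in black; each vertical axis starts at 0. In every panel the red points lie below the blue ones, with the widest gap for rpoa-2 (169.6 to 71.3 CPM).

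The largest subunit is encoded by rpoa-1 (WBGene00012999, chromosome II, 13670626 to 13694795, minus strand of WBcel235), a protein-coding gene with 2 annotated transcripts of 3 and 9 exons. Its level was 142.5, 132.1 and 121.1 CPM in control libraries 1 to 3, and on nol-56 RNAi 80.2, 74.7 and 76.3 CPM. The controls were the more spread group, yet the lowest of them stayed well above the highest RNAi library. Its log2 fold change of −0.77 (standard error 0.05) passed edgeR's test with an adjusted p = 3.57e-12.

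The second-largest subunit, which completes the active site, is encoded by rpoa-2 (WBGene00008781, chromosome I, 9280923 to 9286576, minus strand, 10 exons). Its transcript stood at 181.5, 169.1 and 158.1 CPM in the 3 controls and at 72.9, 70.6 and 70.5 CPM in the 3 RNAi libraries. Control library 1 was again the highest and library 3 the lowest, while the RNAi libraries were nearly level. This was the deepest fall of the 5, with a log2 fold change of −1.25 and a standard error of 0.05 (edgeR adjusted p = 2.61e-16). Among all genes tested, 7.73% had a lower log2 fold change than rpoa-2, compared with 18.8% for rpoa-1.

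The zinc-ribbon subunit gene rpoa-12 (WBGene00007616, chromosome V, 14422725 to 14423304, minus strand, 3 exons) was the weakest of the 5 in counts, with 219 to 662 reads per library. It measured 18.96, 19.2 and 21.2 CPM in the controls and 11.4, 10.7 and 10.1 CPM on RNAi. Control library 3, the lowest for rpoa-1 and rpoa-2, was the highest for rpoa-12, so the controls did not rank alike from gene to gene. Its log2 fold change came to −0.88 (standard error 0.08, edgeR adjusted p = 2.97e-10), and 15.5% of genes had a lower one.

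The alpha-like pair shared with RNA polymerase III had unlike falls. The larger partner, rpac-40 (WBGene00019275, chromosome V, 4199485 to 4203696, plus strand, 5 exons), read 53.8, 57.3 and 54.1 CPM in the controls and 33.6, 29.9 and 28.4 CPM on RNAi. Its log2 fold change of −0.84 (standard error 0.06, edgeR adjusted p = 6.16e-12) was close to those of rpoa-1 and rpoa-12. The smaller partner, rpac-19 (WBGene00010230, chromosome III, 9629246 to 9629885, minus strand, 3 exons), read 36.4, 33.9 and 36.1 CPM in the controls and 24.9, 25.7 and 24.1 CPM on RNAi. Its fall was the smallest, with a log2 fold change of −0.51 (standard error 0.06, edgeR adjusted p = 1.89e-08), and 29.2% of genes had a lower one. With upper-quartile factors, which raise the median of all genes by 0.25, rpac-19 stood at −0.26 and was still called lower (adjusted p = 0.000238).

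Levels can be compared between the genes once they are divided by annotated exon length, which is 5687 bases for rpoa-1, 3784 for rpoa-2, 1244 for rpac-40, 545 for rpac-19 and 471 for rpoa-12. In EV control rpac-19 was the most abundant, at 65.1 ± 2.47 CPM per kb of exon (mean ± SD, n = 3). Next came rpoa-2 at 44.8 ± 3.10, rpac-40 at 44.2 ± 1.56 and rpoa-12 at 42.0 ± 2.61 CPM per kb. These 3 overlapped, with libraries from 40.3 to 47.98 CPM per kb, and their order is not resolved. The largest subunit gene rpoa-1 was the lowest, at 23.2 ± 1.89 CPM per kb.

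On nol-56 RNAi the same ends of the order held, with rpac-19 at 45.7 ± 1.48 and rpoa-1 at 13.5 ± 0.496 CPM per kb. In between, rpac-40 (24.6 ± 2.15) and rpoa-12 (22.8 ± 1.34) still overlapped. By contrast rpoa-2, at 18.8 ± 0.353 CPM per kb, lay below every RNAi library of both, where in the controls it had been level with them. Divided by coding length instead, rpac-19 remained the highest and rpoa-1 the lowest in both groups, and rpoa-12 moved above rpac-40 and rpoa-2 in EV control (55.4 against 50.1 and 50.2 CPM per coding kb).

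**Figure D2:**
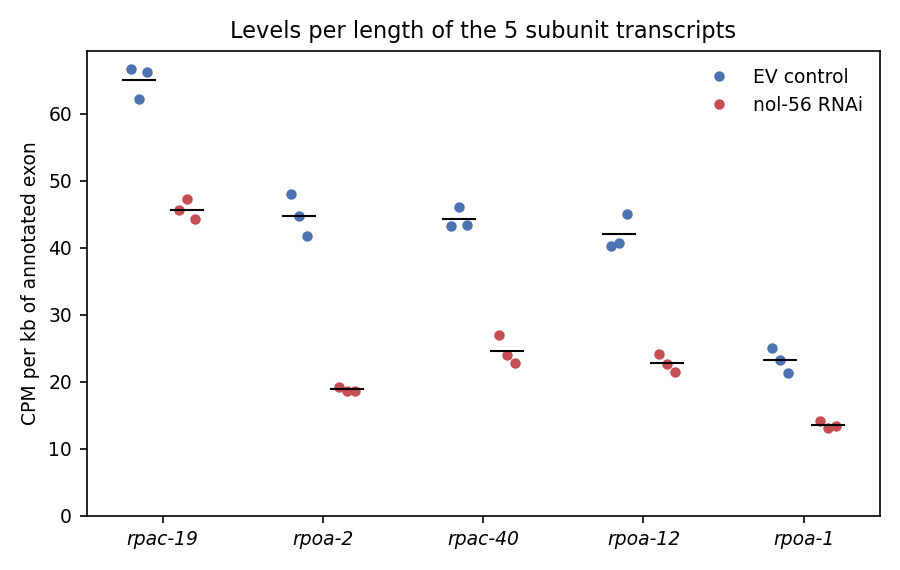
CPM per kb of annotated exon for each subunit transcript, 1 point per library (blue, EV control; red, nol-56 RNAi), black lines at the group means (n = 3), axis from 0. rpac-19 is the highest and rpoa-1 the lowest in both groups, and rpoa-2 moves from 44.8 to 18.8 CPM per kb, from level with rpac-40 and rpoa-12 to below both.

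Unequal falls change the balance of subunit transcripts within a library, which scaling between libraries cannot alter. The log2 ratio of rpoa-2 to rpoa-1, per length, was 0.94, 0.94 and 0.97 in the 3 controls, against 0.45, 0.51 and 0.47 in the 3 RNAi libraries. The ratio thus differed by −0.47 between the groups, with tight groups that did not overlap. The exact permutation test gave p = 0.1 (two-sided), which is the smallest that 3 against 3 libraries allow, so no ratio here can pass 0.05.

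Across the 10 pairs of members, 7 had ratios whose groups did not overlap, each with an exact permutation p = 0.1 (adjusted p = 0.138 over 11 ratios). How often the ratios of other gene pairs separate in this way was not counted. The 7 of 10 is therefore not shown to be particular to these genes. The same limit holds for the ratios to counterparts and between catalytic subunits given further on. The widest shift was between rpoa-2 and rpac-19, with log2 ratios of −0.54 ± 0.11 in the controls and −1.28 ± 0.05 on RNAi (mean ± SD over 3 libraries). The 3 pairs whose groups overlapped were those among rpoa-1, rpoa-12 and rpac-40, with shifts of 0.10 for rpoa-1 over rpoa-12, 0.07 for rpoa-1 over rpac-40 and −0.03 for rpoa-12 over rpac-40 (exact permutation p = 0.4, 0.4 and 0.9). These 3 small shifts depended on single libraries: without EV control library 3 they were −0.0055, 0.026 and 0.032. The mean of the shared pair over the mean of the 3 rpoa genes shifted by 0.29, also without overlap (exact permutation p = 0.1).

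The other nuclear polymerases share subunits with RNA polymerase I or carry counterparts of them, and their transcripts were lower too. All 16 other subunit genes with a matched name were called lower, as were 40.8% of all genes tested. They were the 5 common to polymerases I, II and III, 7 of polymerase II and 4 of polymerase III. For polymerase III, 8 of the 12 names written down had no match. Median log2 fold changes were −0.71, −0.64 and −0.75, beside −0.84 for the RNA polymerase I genes. The common subunits ranged from −0.91 for rpb-5 to −0.36 for rpb-10; with upper-quartile factors rpb-10 stood at −0.11 and missed the threshold (adjusted p = 0.058). All 5 members lay inside the range of these other subunit genes, and among the 21 genes only rpc-2 of polymerase III (−1.30) had a lower log2 fold change than rpoa-2.

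**Figure D3:**
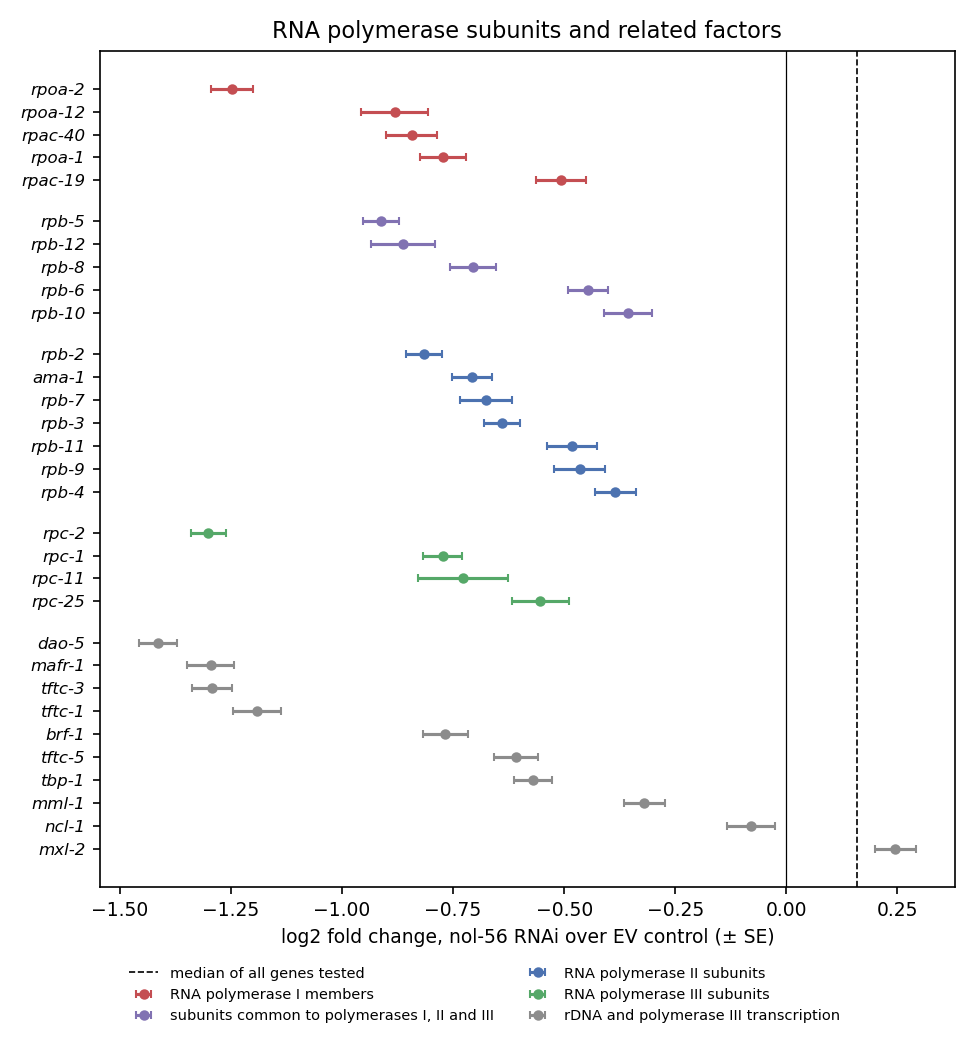
Log2 fold change ± SE (edgeR, 3 against 3 libraries) of the RNA polymerase subunit genes, coloured by enzyme, and of 10 factors of rDNA and polymerase III transcription in grey; the dashed line marks the median of all genes tested (0.16). All 21 subunit genes lie left of 0, with rpoa-2 (−1.25) and rpc-2 (−1.30) the farthest left.

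Members were set beside their counterparts in 8 ratios chosen after the values were seen. Among largest subunits, rpoa-1 over ama-1, the polymerase II gene, shifted by −0.07 on the log2 scale (exact permutation p = 0.2), and the groups overlapped there and for rpoa-1 over rpc-1 of polymerase III (p = 1). Among second-largest subunits, rpoa-2 over rpb-2 of polymerase II shifted by −0.43 with groups that did not overlap, whereas rpoa-2 over rpc-2 shifted by 0.05 with groups that did (exact permutation p = 0.1 and 0.4). The zinc-ribbon gene rpoa-12 shifted by −0.41 over rpb-9 of polymerase II and by −0.16 over rpc-11 of polymerase III, and rpac-40 by −0.21 over rpb-3, each without overlap (exact permutation p = 0.1). The groups came close for rpoa-12 over rpc-11 (lowest control 0.81, highest RNAi library 0.79) and for rpac-40 over rpb-3 (−1.69 and −1.72). Of the alpha-like genes, rpac-19 over rpb-11 shifted by −0.02 (exact permutation p = 0.5). The smallest adjusted p over these 8 ratios was 0.2.

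The ratio between the 2 catalytic subunit genes was lower on RNAi in all 3 polymerases. Per length, the log2 ratio of rpc-2 to rpc-1 moved by −0.53, with RNAi libraries below all controls, close to the −0.47 of rpoa-2 to rpoa-1. For rpb-2 to ama-1 of polymerase II it moved by −0.11, and the groups nearly touched. The lowest control stood at −0.246 and the highest RNAi library at −0.255. Each had an exact permutation p of 0.1, and whether the enzymes differ from each other was not tested.

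**Figure D4:**
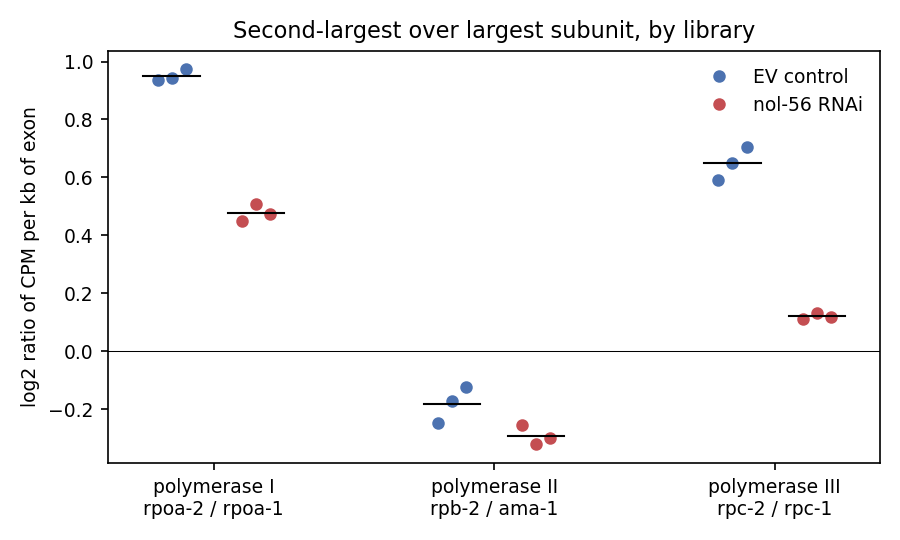
Log2 ratio, per kb of exon, of the second-largest to the largest subunit transcript in each library (blue, EV control; red, nol-56 RNAi; black lines, group means, n = 3) for the 3 nuclear polymerases. The ratio moves down by 0.47 in polymerase I and by 0.53 in polymerase III, and by 0.11 in polymerase II.

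Some genes outside the lists carry a polymerase description in the deposited table; they were named after their values were seen and support nothing. Of these, 2 are described as belonging to RNA polymerase I. A further subunit gene, rpoa-49 (WBGene00017749), stood at 60.6 ± 0.949 CPM in controls and 29.7 ± 1.02 CPM on RNAi (log2 fold change −1.03). Its value is uncertain, since 1177 bases of it overlap rpt-4 on the other strand, which itself changed by −0.89. F23H11.2 (WBGene00017758), described as a TATA box-binding protein-associated factor of the enzyme, went from 47.8 ± 1.07 to 15.01 ± 0.400 CPM (−1.67), below all 5 members. It overlaps sucl-2 by 21 bases on the other strand. The table also describes 3 polymerase III subunits under other names: W09C3.4 (−0.72), M106.7 (−0.54) and let-611 (−0.25). Of these, let-611 fell less than any subunit gene above and missed the threshold with upper-quartile factors (−0.0064, adjusted p = 0.892).

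Factors that act with the enzyme or on polymerase III genes were mostly lower. Of 10 in the list, 8 fell and 1 rose, with a median of −0.69, where 40.8% of all genes were called lower and 47.2% higher. The deepest fall was that of dao-5 (−1.42), the homologue of the nucleolar phosphoprotein Nopp140, which in C. elegans takes part in rDNA transcription. It went from 443 ± 10.8 to 166 ± 6.46 CPM. On the polymerase III side the TFIIIC genes tftc-3 (−1.29) and tftc-1 (−1.19) and mafr-1 (−1.30), whose product represses that enzyme, fell with log2 fold changes near that of rpoa-2. The TFIIIC gene tftc-5 (−0.61) and the TFIIIB gene brf-1 (−0.77) fell less, as did tbp-1 (−0.57), which encodes the TATA-binding protein used by all nuclear polymerases.

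The remaining regulators changed less, and their calls depended on the scaling. ncl-1, whose product limits nucleolar size in C. elegans, stood at 213 ± 22.3 CPM in EV control and 201 ± 1.999 CPM on RNAi (log2 fold change −0.08, edgeR adjusted p = 0.172); its sign depended on the scaling, since upper-quartile factors called it higher (0.17, adjusted p = 0.00474) and RLE factors lower (−0.22, adjusted p = 0.00168). Without EV control library 3 it was called lower as well (−0.17, adjusted p = 0.000767). Of the Myc-superfamily partners, mml-1 fell (−0.32) with TMM but missed the threshold with upper-quartile factors (−0.07, adjusted p = 0.13). Its partner mxl-2 rose (0.25) and missed the threshold with RLE factors (0.11, adjusted p = 0.0585); DESeq2 did not call it either (0.09, adjusted p = 0.225).

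Among genes of the box C/D proteins, aside from the targeted gene, fib-1, the methyltransferase of the particle, had a lower log2 fold change (−1.55) than any member. nol-58 (−0.73) and M28.5 (−0.85) lay within the range of the members.

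The members do not overlap any other annotated gene, so no annotated gene shares its bases with them on either strand, but 3 of them have a close neighbour on their own strand. In C. elegans many closely spaced genes of 1 strand are transcribed together as operons; the annotation used does not mark them. rpac-40 starts 85 bases after algn-5, which encodes an enzyme of glycosylation, and algn-5 changed by −0.21 against −0.84 for rpac-40. rpac-19 ends 91 bases before tbg-1, the γ-tubulin gene, which changed by −0.23 against −0.51, and follows ubc-7, a ubiquitin-conjugating enzyme gene (−0.48), by 211 bases. rpoa-12 ends 106 bases before the proteasome gene pas-1, which changed by −0.66 against −0.88. Each member thus stood lower than its nearest neighbour, by differences that were not tested, and with upper-quartile factors algn-5 and tbg-1 turned to 0.039 and 0.014.

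The nearest same-strand genes of the 2 catalytic subunit genes lie farther off. For rpoa-2 they were hxk-1, a hexokinase gene 2233 bases downstream (−0.52), and phac-1, 3142 bases upstream (−0.39). For rpoa-1 they were C31C9.6, 8535 bases downstream, and zipt-2.3, 18110 bases upstream, which rose (1.14 and 1.00) at low levels.

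Over the 6 libraries, the genes whose centred log2 CPM lay nearest to the mean profile of the 5 members were searched among 8447 genes whose mean log2 CPM reached 3. The nearest was Y48B6A.1, described in the deposited table as a homologue of the ribosome biogenesis protein BOP1, with a root mean square distance of 0.012 on the log2 scale. It read 176.4, 174.4 and 171.0 CPM in the controls and 98.9, 95.9 and 93.2 CPM on RNAi. trcs-1 (0.014), the queuine tRNA-ribosyltransferase gene tgt-1 (0.016), T19H12.2 (0.016) and let-630 (0.017) followed. The members themselves lay at 0.054 for rpac-40, 0.067 for rpoa-12, 0.069 for rpoa-1, 0.177 for rpac-19 and 0.203 for rpoa-2, so these other genes were nearer to the members' mean than any member was. That order was largely set by the search, which kept the nearest of 8447 genes, while the members were not chosen by distance. How many of the 8447 genes lay nearer than the members was not counted.

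Markers of cell types moved in the same libraries, in which 40.8% of all genes were called lower and 47.2% higher. All 20 germline and oocyte markers fell, with a median of −1.20, below that of the members, and their summed level went from between 12770 and 13671 CPM in EV control to between 5188 and 5328 CPM in nol-56 RNAi libraries. car-1 (−2.78), htp-3 (−2.05) and cgh-1 (−2.02), which act in germline RNA granules or on meiotic chromosomes, had the smallest p. Every marker tested of intestine (9 of 9), body wall muscle (10 of 10) and neurons (10 of 10) rose, with medians of 1.15, 1.08 and 1.06, among them cpr-3 (1.41), unc-27 (1.12) and egl-3 (1.44). Epidermal markers were mixed, with 7 lower and 3 higher. Of the 7 lower ones, 6 had groups that did not overlap. With upper-quartile factors or library totals 6 epidermal markers were called lower. The weakest of the lower ones had only 9 to 36 reads per library. The intestine marker opt-2 had no match among the gene names and was left out; the other markers had reads in these libraries. Summed levels ran from 2084 to 2270 CPM in EV control against 3662 to 3710 CPM in nol-56 RNAi for intestine, from 3568 to 3865 against 7155 to 7192 for muscle, from 502 to 524 against 977 to 1001 for neurons and from 643 to 712 against 654 to 672 for epidermis. The nearly level epidermal sum joined opposite changes and does not show that epidermal markers were unchanged. Among the 3 higher ones, rol-6 rose from a mean of 169.1 CPM in EV control to 364.3 CPM on nol-56 RNAi. Among the 7 lower ones, lin-26 fell from 177.8 to 124.2 CPM and noah-1 from 133.0 to 51.2 CPM. The part of these marker shifts in the falls of the polymerase genes was not tested.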

How the data were processed

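RNA was measured in 3 EV control and 3 nol-56 RNAi pools of whole worms, grouped and numbered by their titles. The deposited table holds the authors' raw count per gene and library, and a normalized signal, which is that count over a size factor of 0.832 to 1.23. That signal served only to check the columns. Per the submitters' processing notes, the build was WBcel235 and the tools included DESeq2 1.36.0, HTSeq 2.01, TopHat2 2.1.1 and cutadapt 2.10, listed with no role or order. The strand setting of the counting was not stated. Gene positions, exons and lengths came from the Ensembl annotation of the same build.

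Counts were filtered with filterByExpr, TMM-scaled and tested with edgeR 4.0.16 (R 4.3.3, quasi-likelihood, group as the single term). Two-sided p-values were adjusted by Benjamini-Hochberg over all 14677 genes tested, at a threshold of 0.05. CPM use TMM-scaled totals. Log2 ratios between genes used log2 CPM with a prior count of 2, less the log2 exon length, and an exact permutation test over libraries. Only the edgeR test was checked on simulated counts. Few genes changed in that simulation, whereas 88% of genes were called here, so it does not check that case. Chi-square per degree of freedom between libraries of a group was 1.99 to 5.95, so every library was counted. Each pair of same-numbered libraries had a correlation of deviations from −0.0351 to 0.000394, so the numbers did not pair libraries.

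The 5 members and all lists were chosen with earlier results of these data known. Genes named were the members, the genes of the polymerase, rDNA and box C/D lists, neighbours of the members, the 5 genes with the most similar profile and up to 3 markers per list with the smallest p. Alternatives were RLE and upper-quartile factors, library totals, no filter, a filter at 5 CPM in at least 3 libraries, the replicate block, limma-voom (limma 3.58.1), DESeq2 1.42.0, leaving out the 20 genes with the most counts, a prior count of 0.5 and each library left out.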

Additional observations from a re-analysis of the deposited data

How the results depend on the processing

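All 5 members kept their direction and their call under the 15 other settings of the gene test, in which their log2 fold changes ran from −1.41 (rpoa-2, DESeq2) to −0.26 (rpac-19, upper-quartile factors). The highest adjusted p of a member was 0.000238, with upper-quartile factors; with the replicate block it was 9.13e-07 and rpoa-2 stood at −1.25, and the block changed no call of the members or of the list genes. Relative to the median of all genes, the median of the members was −1.004 with TMM, −1.003 with upper-quartile factors and −0.68 with genes above 5 CPM. RLE factors moved the median of all genes by −0.14, upper-quartile factors by 0.25 and the 5 CPM filter by −0.17. That filter left 4508 genes called higher among 9931 tested, against 6927 of 14677 with the main filter. Of all calls, 49.7% were higher with that filter and 53.6% with the main one. Lower calls, the direction of the members, thus took a larger part of the calls with that filter. In the list of rDNA and polymerase III factors, 0 genes were called higher with RLE factors and 0 with DESeq2 (0 at an unadjusted p under 0.05 in both), 1 with TMM, and 2 with upper-quartile factors. The log2 fold change of ncl-1 turned to 0.17 with upper-quartile factors, 0.016 with library totals and 0.069 with the 5 CPM filter. With upper-quartile factors the neighbours tbg-1 and algn-5 turned to 0.014 and 0.039.

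With each library left out in turn, the shift of rpoa-1 over rpoa-12 ran from −0.0055 to 0.19, that of rpoa-12 over rpac-40 from −0.082 to 0.032, and that of rpoa-1 over rpc-1 from −0.025 to 0.017; the changes of sign came without EV control library 3 and, for the last, also without nol-56 RNAi library 1 (−0.012). The other ratios kept their direction, but small shifts moved by over 1.5 times: rpoa-1 over rpac-40 ran from 0.026 (without EV control library 3) to 0.147 (without EV control library 1), rpoa-2 over rpc-2 from 0.012 to 0.092 (the same libraries), and rpac-19 over rpb-11 from −0.0495 (without nol-56 RNAi library 1) to −0.0031 (without EV control library 3). The cause of these changes was not tested. No ratio could reach a p of 0.05 with 3 libraries a group.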
